A study of Mus musculus with 2 samples.

Results

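The 56 genes described here encode non-collagen proteins of the extracellular matrix, together with enzymes that build or crosslink it, and were compared between wild-type and Bmi1 null mouse embryonic fibroblasts (MEFs). They were listed by name and role, with no measured value in the rule but with earlier results of these data known. Each gene was read from its probe set of highest mean log2 signal among those annotated to that gene alone. Of the 56, 53 had such a probe set, among 18194 genes on the array, and 45 were measured, that is above the floor of 100 signal units on at least 1 array, among 11766 measured genes. Fbn1, Efemp2 and Loxl2 were not analysed here. For Loxl2 the probe sets also carried the name of a second gene.

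The series held 1 array for each of 2 cell lines. Per the study's methods, the fibroblasts came from Bmi1 wild-type and Bmi1 null littermates and were made immortal with a construct that expresses TBX2 (TBX2.pBabePURO), a T-box repressor. The labels give both as male C57BL/6 cells, grown in DMEM with 10% FBS and not treated. Bmi1 is a subunit of Polycomb repressive complex 1, which ubiquitylates histone H2A at repressed genes. Each line was 1 culture on 1 array, so there was no replicate and no test, and genotype, line, culture and array cannot be told apart. Differences are given as the log2 ratio of null over wild-type MAS5 signal, or as a fold, and a fold against a signal below the floor is written as "at least".

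The targeted gene read 9933 on the wild-type array and 2146 on the null array at its brighter Bmi1 probe set (4.63-fold lower), but 931 and 831 at the other. Both probe sets were thus well above the floor of 100 on the null array, and since it is unknown here whether they cover the sequence removed in the null allele, they check the label only in part. Both arrays had a trimmed mean signal of 500, and the median log2 ratio of measured genes was 0.01. The SD of the log2 ratio of a single probe set was estimated from differences between probe sets of 1 gene, both above the floor on both arrays. It was 0.30 over 11916 pairs, and 0.38 over 32 pairs among the matrix genes. This is the only error these data allow, and it covers neither signals near the floor nor the spread between cultures. All 8 fibroblast markers were measured, with summed signals of 73912 and 89657 and a median log2 ratio of 0.00, but they differed among themselves. Col3a1 (4617 and 20209, 4.38-fold) and Col1a1 (6860 and 14841, 2.16-fold) were higher in null cells, whereas Pdgfra (4952 and 532, 9.31-fold) and Thy1 (375 and 50.7, at least 3.75-fold) were lower. The other 4 were less than 2-fold different, with vimentin (Vim) at 19519 and 19233, Col1a2 at 15048 and 17030, Pdgfrb at 6816 and 6951 and Dcn at 15725 and 10812. Smooth muscle markers were higher in null cells in 5 of 5 genes, against 50.6% of all measured genes, with summed signals of 21103 and 34230. Of these, Acta2 (1.45-fold), Tagln (1.57-fold) and Des (1.25-fold) were less than 2-fold different. Myh11 (6.31 and 449) and Cnn1 (18 and 2291) did not reach the floor in the wild type, which fixed their direction. Mesothelial markers moved too, with summed signals of 3266 and 11591 carried by Gpm6a and Upk3b, while Msln was 2.92-fold lower and Wt1 was below the floor on both arrays. The 5 epithelial markers summed to 385 and 1170, of which 2 were measured, with Epcam 5.59-fold higher and Cdh1, Krt8 and Krt18 not above the floor. The 6 endothelial markers summed to 441 and 403. Pecam1, Tie1 and Tek were below the floor on both arrays, but Cdh5 (208 and 29.2, at least 2.08-fold lower), Kdr (150 and 206) and Emcn (26 and 103) exceeded it on at least 1. The 5 macrophage markers summed to 555 and 508, with Adgre1 (171 and 118) and Csf1r (244 and 213) above the floor and Ptprc, Cd68 and Lyz2 below it. The part of these differences in the results below was not tested.

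The null array also went against its label of male. Eif2s3y (1683 and 23.3), Uty (1187 and 26.5) and Kdm5d (712 and 15.3), which lie on the Y chromosome, were bright in wild-type cells and did not exceed the floor in null cells, while Xist was close to the floor on both (153 and 124). Since each comparison rests on these arrays, a difference in sex or in the Y chromosome between the lines cannot be told apart from genotype.

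Fibroblasts lay down a matrix in which several assemblies are built from separate genes. Elastic fibres form when elastin is deposited on microfibrils of fibrillins and their partners, and lysyl oxidases then crosslink it. Basement membranes are sheets of laminin trimers, each made of an alpha, a beta and a gamma chain, joined to collagen by nidogens and perlecan. Matricellular proteins such as tenascins, thrombospondins and the SPARC family act mainly as signals to cells, and fibronectin and versican fill the interstitial matrix. The latent TGF-beta binding proteins (LTBPs) sit on microfibrils and hold TGF-beta in an inactive form.

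More matrix genes had higher than lower signal in null cells. Signal was at least 2-fold higher for 11 of the 45 measured genes (24.4%), against 5.73% of all measured genes. It was lower by that much for 4 (8.89%), against 5.16% of all. The log2 ratio was above 0 in 30 of the 45 (66.7%), compared with 50.6% of all measured genes, and the median was 0.42. The higher genes were Spon2, Smoc1, Ltbp1, Nid2, Lama5, Has2, Emilin1, Thbs3, Ltbp3, Tnc and Fbn2, and the lower ones Lama4, Smoc2, Emilin2 and Dpt. A further 5 genes had log2 ratios between 0.9 and 1 in size: Thbs1, Fbln2, Lamc1 and Loxl3 on the higher side and Tnxb on the lower. The Tnxb value is a bound, since its null signal was below the floor, so its difference may exceed 2-fold.

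**Figure D1:**
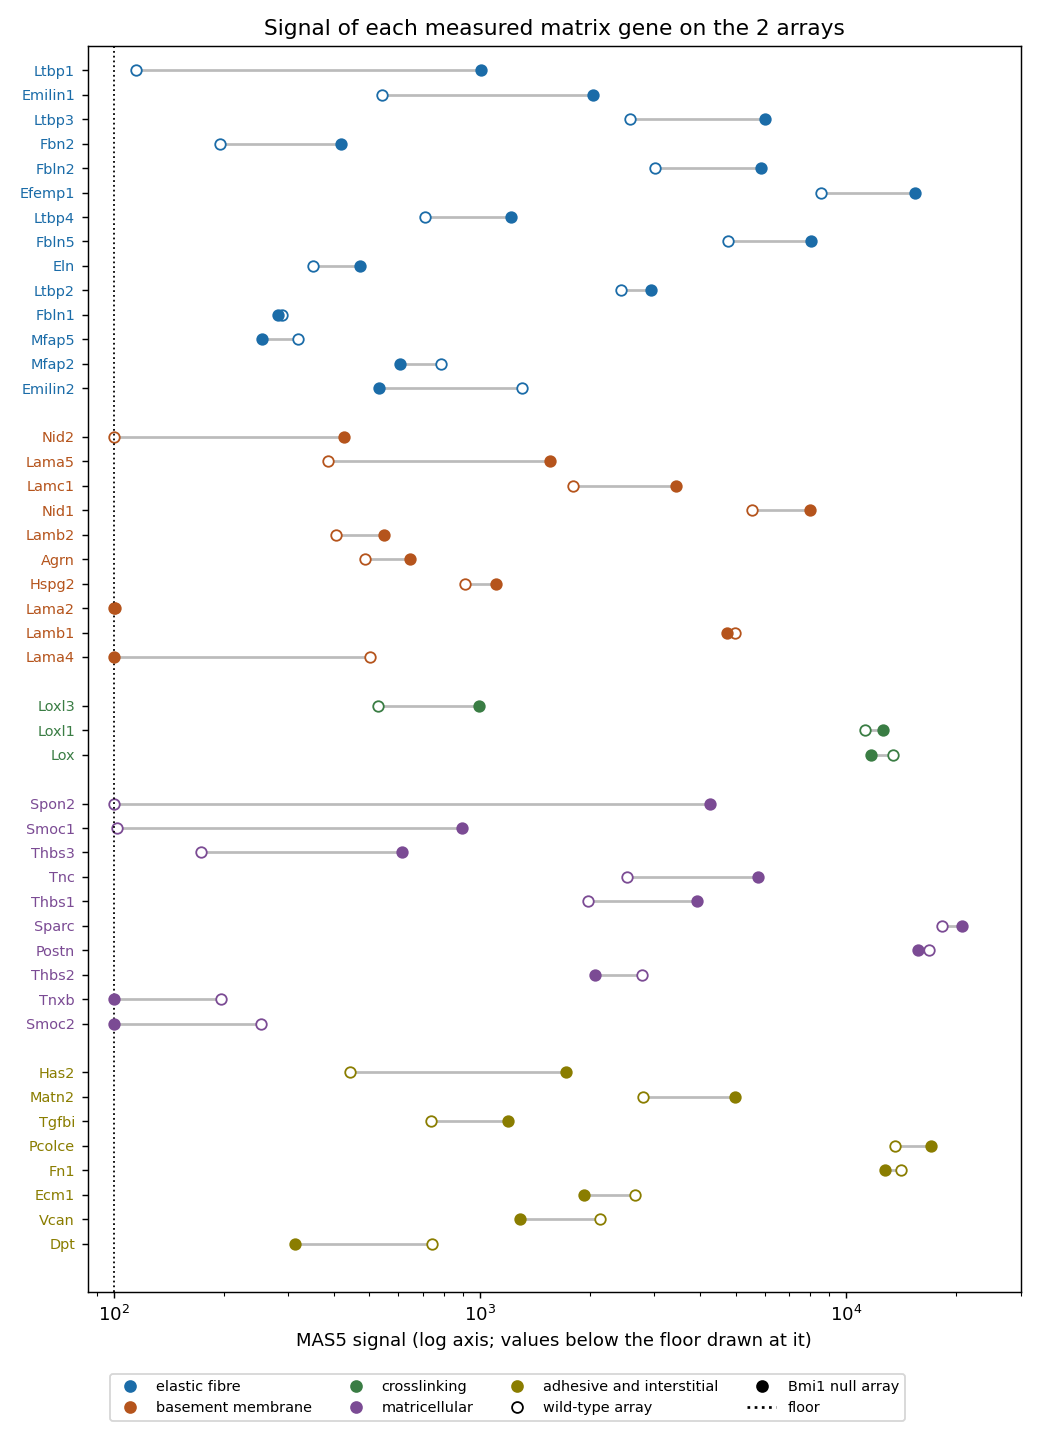
MAS5 signal (x axis, log scale) of each of the 45 measured matrix genes (rows, coloured by class) on the wild-type array (open circles) and the Bmi1 null array (filled circles), with values below the floor of 100 drawn at it (dotted line). The widest gap is that of Spon2, whereas Sparc, Postn, Lox and Fn1 lie far to the right with both circles close together.

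Signals of at least 5000 on both arrays were found for Sparc, Postn, Fn1, Lox, Loxl1, Pcolce, Efemp1 and Nid1, with log2 ratios from -0.21 to 0.86. The requirement on both arrays itself leaves out genes that differ, such as Ltbp3 and Tnc, which passed 5000 in null cells alone. Of the 15 matrix genes at least 2-fold different, the brighter signal reached the trimmed mean of 500 in 12, of which 9 were higher and 3 lower.

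The classes did not share 1 pattern. The elastic fibre class had the highest median log2 ratio, 0.77 over 14 measured genes, with 4 at least 2-fold higher and 1 lower. The matricellular class followed at 0.58 over 10 genes, with 4 higher and 1 lower, and had the widest range, from -1.34 to 5.41. The basement membrane class had a median of 0.42 over 10 genes, with 2 higher and 1 lower. Crosslinking enzymes (0.16 over 3 genes) and adhesive and interstitial genes (0.09 over 8 genes, 1 higher and 1 lower) lay nearer to 0. With a doubled floor (0.4 times the trimmed mean) the matricellular median was 0.99, and with a floor of 0.1 times the crosslinking median was 0.51. Without probe sets of the suffixes _s_at, _x_at and _a_at, the elastic fibre median was 0.59 and the matricellular median 0.58. The order of the classes thus depends on the floor, and the lead of the elastic fibre class depends on the probe sets as well.

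**Figure D2:**
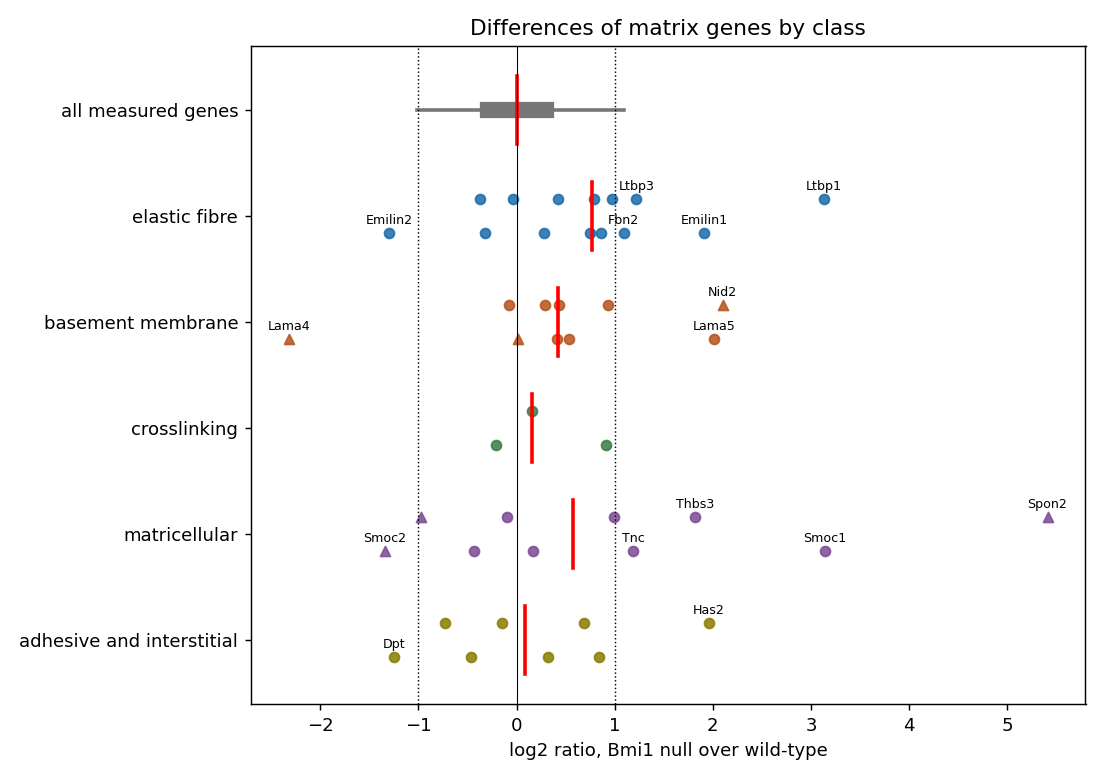
Log2 ratio, Bmi1 null over wild-type (x axis), of each measured matrix gene (points) by class, with medians as red bars, dotted lines at 2-fold, and triangles for bounds where 1 array was below the floor; in the top row the thick and thin grey bars span the central 50% and 90% of all measured genes. The elastic fibre median of 0.77 lies furthest to the right, and Spon2 at 5.41 and Lama4 at -2.32 are the ends of the range. Genes at least 2-fold different are named.

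The promoters of 4 of these genes are printed because they differ in direction and in CG count, from 24 to 4. A further reason is that Polycomb complexes in mammals are known to gather at CpG-rich promoters. Each runs 5′ to 3′ from 250 bases before to 50 after the first start that the RefSeq promoter table (GRCm38.p6) lists for the gene, with CG dinucleotides in capitals. Ltbp1 (chr17:75005279-75005578, plus strand) and Lama5 (chr2:180225810-180226109, minus strand) were higher in null cells and hold 17 and 24 CG dinucleotides. Emilin1 (chr5:30913536-30913835, plus strand) was also higher and holds 6, and Dpt (chr1:164796413-164796712, plus strand) was lower and holds 4. Their ratios of observed to expected CpG were 0.66, 0.61, 0.23 and 0.23 in this order. Each was below the median of 0.77 for measured genes with a promoter.
Ltbp1: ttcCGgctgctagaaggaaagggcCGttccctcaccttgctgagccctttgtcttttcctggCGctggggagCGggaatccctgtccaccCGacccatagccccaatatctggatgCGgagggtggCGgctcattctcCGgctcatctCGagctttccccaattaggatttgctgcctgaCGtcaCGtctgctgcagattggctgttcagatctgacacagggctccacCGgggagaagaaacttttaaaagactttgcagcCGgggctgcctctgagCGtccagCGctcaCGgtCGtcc
Lama5: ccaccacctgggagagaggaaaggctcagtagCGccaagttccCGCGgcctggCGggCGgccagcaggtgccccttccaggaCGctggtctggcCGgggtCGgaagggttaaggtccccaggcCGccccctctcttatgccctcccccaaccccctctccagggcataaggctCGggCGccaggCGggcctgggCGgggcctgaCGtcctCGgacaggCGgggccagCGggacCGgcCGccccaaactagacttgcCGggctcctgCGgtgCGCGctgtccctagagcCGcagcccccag
Emilin1: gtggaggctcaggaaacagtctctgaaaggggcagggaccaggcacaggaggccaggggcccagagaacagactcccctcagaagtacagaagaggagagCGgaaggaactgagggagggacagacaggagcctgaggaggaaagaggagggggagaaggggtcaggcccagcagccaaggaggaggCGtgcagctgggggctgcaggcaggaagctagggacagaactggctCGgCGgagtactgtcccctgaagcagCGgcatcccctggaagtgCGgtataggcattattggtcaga
Dpt: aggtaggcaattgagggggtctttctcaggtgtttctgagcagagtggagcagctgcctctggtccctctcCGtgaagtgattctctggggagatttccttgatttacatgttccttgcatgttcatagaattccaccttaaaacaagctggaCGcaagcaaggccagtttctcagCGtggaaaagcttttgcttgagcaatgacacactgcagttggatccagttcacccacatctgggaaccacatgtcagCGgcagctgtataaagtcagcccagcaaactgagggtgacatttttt

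Promoters were found for 34 of the 56 genes, of which 29 were measured. Their ratio of observed to expected CpG had a median of 0.44 in the 29, against 0.77 for the 9526 measured genes with a promoter in the table. The median was 0.39 for all 27025 promoters. Of the 29, 26 lay below 0.77. The ratio did not sort the genes by direction. The 6 genes at least 2-fold higher ranged from 0.19 (Ltbp3) to 0.66 (Ltbp1), the 2 lower genes were at 0.23 (Dpt) and 0.40 (Emilin2), and the 21 others ranged from 0.05 to 0.88. The TATA word TATAAA, searched on both strands, was present in 4 of the 29 (13.8%), against 7.18% of promoters of measured genes and 14.2% of all 27025 promoters. The AP-1 word TGANTCA was likewise present in 4 (13.8%, against 4.93% and 7.93%) and the GC box GGGCGG in 18 (62.1%, against 64.9% and 35.9%). Of the genes at least 2-fold different, Tnc and Dpt held TATAAA and Ltbp3 held TGANTCA. Since 11 of the 34 genes have several listed starts, a count at the first start need not describe the one used in these cells. Vcan, with a log2 ratio of -0.73, was the 1 gene of the 56 named on the study's list of Bmi1-dependent promoter peaks of ubiquitylated H2A. The matching share over all measured genes was not computed, so this count does not show whether the matrix genes hold more or fewer peaks than others.

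**Figure D3:**
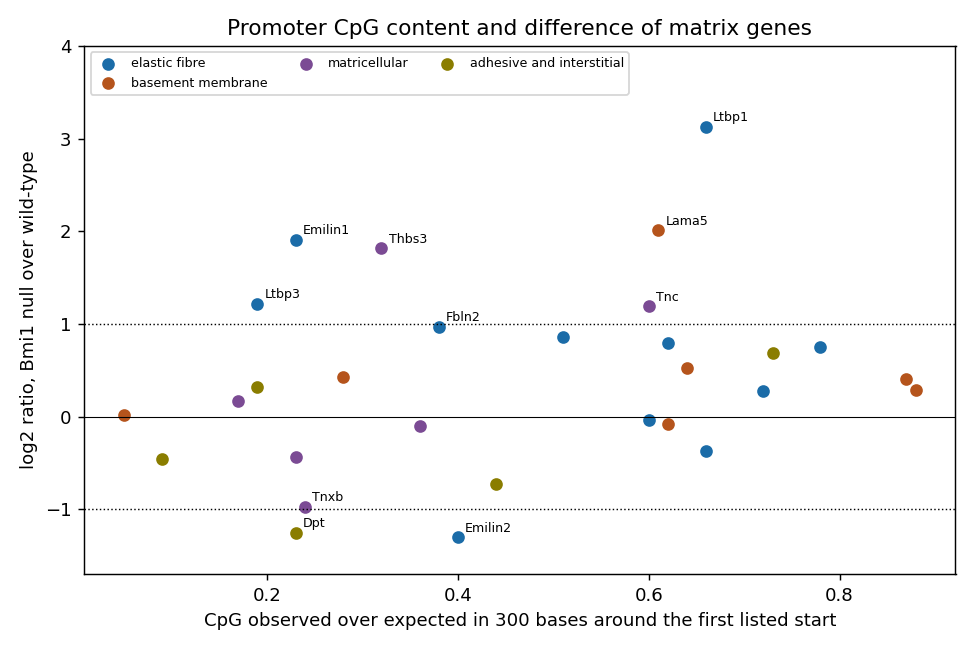
Ratio of observed to expected CpG in the 300 bases around the first listed start (x axis) against the log2 ratio, Bmi1 null over wild-type (y axis), for the 29 measured matrix genes with a promoter in the table, coloured by class, with dotted lines at 2-fold. Genes at least 2-fold higher range from Ltbp3 at 0.19 to Ltbp1 at 0.66, all below the median of 0.77 for measured genes with a promoter.

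Among the elastic fibre genes, the LTBP family had higher signal in null cells in 4 of 4 members. Ltbp1, which covalently holds latent TGF-beta, read 115 on the wild-type array and 1008 on the null array, 8.74-fold higher, with a log2 ratio above those of 99.4% of measured genes. The wild-type signal was close to the floor, and the log2 ratio of 3.13 became 2.33 with a doubled floor. Ltbp3 read 2578 and 6020 (2.33-fold) at 1 probe set and 1079 and 3132 (2.9-fold) at another. Ltbp4 was 1.73-fold higher (707 and 1219) and Ltbp2, an LTBP that does not bind TGF-beta, 1.21-fold (2425 and 2935). The log2 ratios of the family thus ran from 0.28 for Ltbp2 to 3.13 for Ltbp1.

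Of the scaffold and assembly genes of the fibre, Fbn2 was the one at least 2-fold different at its representative probe set. Elastin itself (Eln) read 351 and 472, 1.34-fold higher in null cells. Fibrillin-2 (Fbn2), a microfibril protein most abundant in embryonic tissue, read 195 and 417 (2.13-fold). The fibulin Fbln5, which brings elastin to microfibrils, read 4779 and 8019 (1.68-fold, and at least 2.02-fold at a dimmer probe set), Fbln2 3012 and 5884 (1.95-fold) and the related Efemp1 8546 and 15500 (1.81-fold). Each of these 3 was thus higher in null cells. The remaining fibulin, Fbln1, read 289 and 281 at its representative probe set, but 328 and 111 (2.96-fold lower) at another, so its difference rests on the probe set chosen. The microfibril-associated glycoproteins Mfap2 (785 and 605) and Mfap5 (318 and 255) were 1.3-fold and 1.25-fold lower, and Mfap4 did not exceed the floor on either array (13.2 and 13.9).

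The emilins, glycoproteins found where elastin meets the microfibril, differed in opposite directions. Emilin1, which also limits the maturation of TGF-beta, read 541 on the wild-type array and 2033 on the null array (3.76-fold higher), and 296 and 685 (2.31-fold) at its other probe set. Emilin2 read 1307 and 531, 2.46-fold lower, from 1 probe set. The Emilin1 promoter printed above holds few CG dinucleotides, and that of Emilin2 has a CpG ratio of 0.40.

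In the basement membrane class, 2 alpha chains of laminin differed in opposite directions. Lama5, an alpha chain widespread in epithelial and vascular basement membranes, read 385 on the wild-type array and 1553 on the null array (4.03-fold higher), with 188 and 669 (3.56-fold) at a second probe set. Lama4, an alpha chain typical of mesenchymal and endothelial cells, read 501 and 84.5, at least 5.01-fold lower, while a second, dimmer probe set gave no ratio. The log2 ratio of Lama4 was -2.32, and -1.32 with a doubled floor. Lama2, the alpha chain of muscle, stayed at the floor (88.9 and 101), and Lama1 was below it (3.63 and 16.9).

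None of the beta and gamma chains, which pair with either alpha chain, reached 2-fold, but Lamc1 came close to it. Lamb1 read 4986 and 4731 (1.05-fold lower), and its other measured probe sets had log2 ratios of 0.01 and -0.38. Lamb2 was 1.35-fold higher (406 and 548). Lamc1 was 1.91-fold higher at its brighter probe set (1803 and 3441) but 1.1-fold lower at the other (272 and 248). The median log2 ratio over the 6 measured laminin chains was 0.23, and Lama5 and Lama4 were the ones that differed 2-fold.

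Of the linkers of the basement membrane, nidogen-2 (Nid2) read 33.3 on the wild-type array and 427 on the null array, at least 4.27-fold higher, whereas its paralogue Nid1 was 1.45-fold higher (5526 and 7994, with log2 ratios of 0.53 and 0.56 at its probe sets). Since wild-type Nid2 lay below the floor, its bound fell to a log2 ratio of 1.10 with a doubled floor. The perlecan gene Hspg2 was 1.22-fold higher at one probe set (909 and 1110) and 2.18-fold at another (348 and 758), and agrin (Agrn) was 1.33-fold higher (485 and 644). Nephronectin (Npnt), a ligand of integrin alpha8, read 97.1 and 96.3 at its representative probe set and so was not counted as measured. Other Npnt probe sets read 9 and 245 (a bound of 2.45-fold higher), 25.9 and 193 (1.93-fold) and 68.7 and 116 (1.16-fold). Fras1, of epithelial basement membranes, did not exceed the floor on either array (55.9 and 45.9).

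Matricellular genes held the widest differences. Spon2, a secreted spondin known to act on innate immune cells, read 81.2 on the wild-type array and 4266 on the null array, at least 42.7-fold higher, but 179 and 376 (2.09-fold) at its other probe set. The log2 ratio was 5.41 from the brighter probe set, whose suffix (_a_at) marks probes shared by several transcripts of a gene, and 1.07 when such probe sets were not used. The related Spon1 did not exceed the floor on either array (52.5 and 46.7). Direction was thus shared by both Spon2 probe sets, and size was not.

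The SPARC family, calcium-binding proteins that modulate growth factors and collagen, split 3 ways. Smoc1, a SMOC known to antagonise BMP signals, read 102 and 897, 8.81-fold higher in null cells. The paralogue Smoc2 read 253 and 94, at least 2.53-fold lower, and 127 and 31.7 (at least 1.27-fold) at a second probe set. With a doubled floor (0.4 times the trimmed mean) the Smoc1 log2 ratio fell from 3.14 to 2.17, and that of Smoc2 was -0.34, no longer 2-fold. Sparc itself was bright and 1.13-fold higher (18362 and 20720), and Sparcl1 did not exceed the floor on either array (6.67 and 84.8).

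Thrombospondins and tenascins were also divided. Thbs1, an activator of latent TGF-beta, was 1.99-fold higher in null cells (1980 and 3931) and 1.87-fold higher at a second probe set. Thbs3, of the pentameric subgroup, was 3.54-fold higher (173 and 613). Thbs2 was lower at each of its 3 probe sets, by 1.35-fold (2782 and 2060), 1.52-fold (2624 and 1730) and 2.32-fold (3435 and 1478). Tenascin-C (Tnc), a large glycoprotein of developing and wounded tissue, was 2.28-fold higher (2523 and 5754), and tenascin-X (Tnxb), which associates with fibrillar collagen, read 196 and 52.6, at least 1.96-fold lower. Periostin (Postn), a matricellular protein of mesenchyme, was among the brightest and differed by 1.07-fold (16822 and 15721).

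None of the 3 measured crosslinking enzymes differed 2-fold. Lox and Loxl1, the lysyl oxidases that act on collagen and elastin, read 13496 and 11698 (1.15-fold lower) and 11257 and 12600 (1.12-fold higher). Another, dim Lox probe set read 140 and 222, in the opposite direction to the bright ones. Loxl3 was 1.89-fold higher (529 and 998), and Loxl4 did not exceed the floor on either array (48.3 and 90.6). The log2 ratios of the bright Lox probe sets were -0.21 and -0.32, and those of Loxl1 0.16 and 0.39.

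Of the adhesive and interstitial genes, Has2, the main fibroblast synthase of hyaluronan, had the highest ratio, with 443 on the wild-type array and 1718 on the null array (3.88-fold) and 327 and 1611 (4.93-fold) at its other probe set. Versican (Vcan), the proteoglycan that binds hyaluronan, differed the other way, by 1.66-fold (2134 and 1287), 1.71-fold and 1.78-fold at its 3 measured probe sets. Dermatopontin (Dpt), a small matrix protein of skin that binds decorin, read 742 and 313, 2.37-fold lower. Fibronectin (Fn1) was 1.11-fold lower at its bright probe set (14137 and 12777) and 2.01-fold lower at a dim one (741 and 369). Matn2, which links matrix filaments, was 1.79-fold higher (2787 and 4995), and Tgfbi, a protein induced by TGF-beta, was 1.62-fold higher (738 and 1193), with 3 other probe sets at 1.47-fold, 1.51-fold and at least 2.09-fold. Ecm1 was 1.38-fold lower (2652 and 1925), the procollagen processing enhancer Pcolce was 1.25-fold higher (13618 and 17055), and vitronectin (Vtn), made chiefly by liver, did not exceed the floor on either array (2.9 and 27.5).

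**Figure D4:**
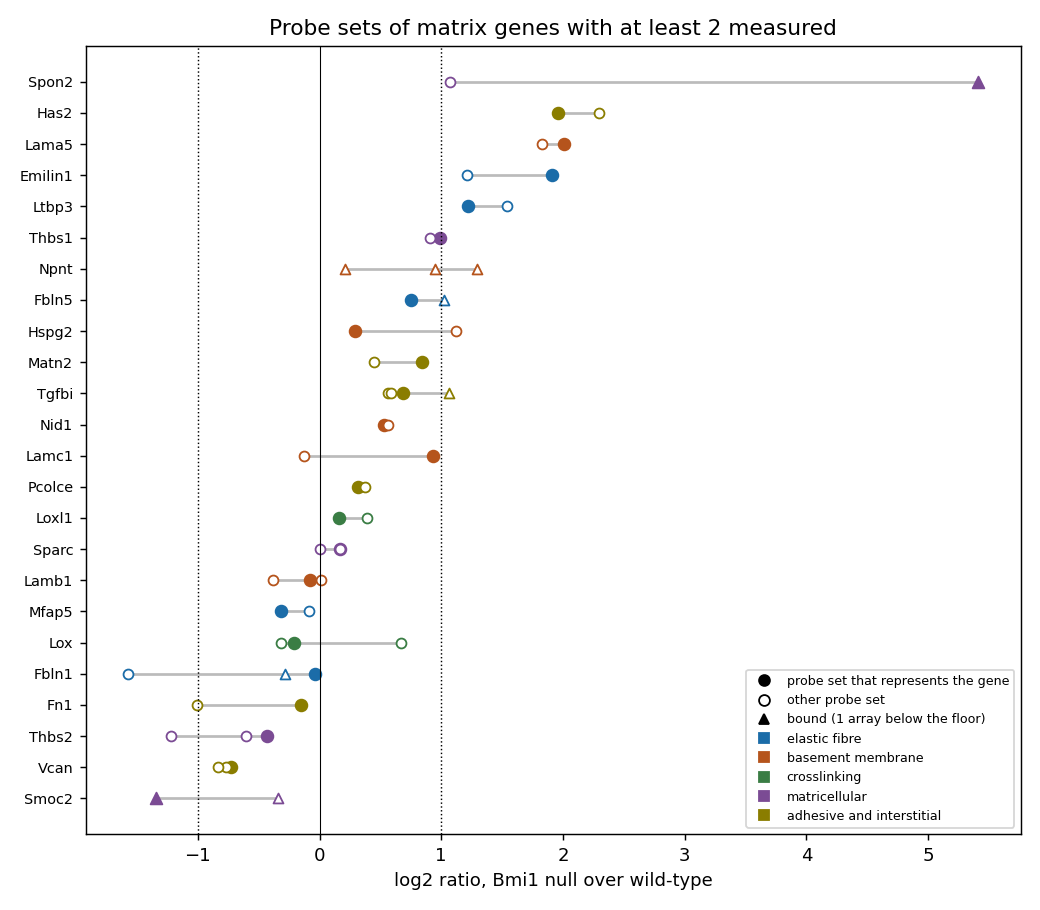
Log2 ratio, Bmi1 null over wild-type (x axis), of every measured probe set of the matrix genes that had at least 2 (rows), with the probe set that represents the gene filled, the others open, and triangles for bounds. Probe sets of Has2, Lama5, Emilin1 and Ltbp3 all lie beyond 2-fold on the higher side, those of Spon2 lie from 1.07 to 5.41, and those of Lamb1, Lamc1, Lox and Sparc straddle 0.

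Where several probe sets could be compared, most pointed the same way. Of 23 measured genes with at least 2 measured probe sets, 19 had each of them on the same side of 0, and Lamb1, Lamc1, Lox and Sparc did not. For Sparc the exception was a dim probe set that read 118 on both arrays. The same side of 0 does not mean the same size, as log2 ratios ran from -1.57 to -0.04 for Fbln1 and from -1.01 to -0.15 for Fn1. The matching share over all genes was not computed, so the count describes these probe sets only. Of the 15 genes at least 2-fold different, 6 had another measured probe set, and in 5 of these, Spon2, Has2, Lama5, Emilin1 and Ltbp3, each was at least 2-fold different in the same direction. The exception was Smoc2. The other 9 genes rest on 1 measured probe set, and 4 of the 15 folds (Spon2, Nid2, Lama4 and Smoc2) are bounds.

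Other matrix glycoproteins and the receptors and enzymes that serve the matrix were read from lists of their own. Among 15 measured glycoproteins outside the 56, 3 (20%) had at least 2-fold more signal on the null array and 2 (13.3%) had at least 2-fold less (median log2 ratio 0.42). The shares over all measured genes were 5.73% and 5.16%. Mmrn1, a relative of the emilins, was at least 5.86-fold higher (64.2 and 586), the calcification inhibitor Mgp at least 5.47-fold (21 and 547), Svep1 2.9-fold (314 and 908) and the peroxidasin Pxdn 1.92-fold (2115 and 4070). The lower ones, named after their values were seen, were Egflam (at least 2.09-fold) and Fgl2 (at least 2.04-fold). Mmrn1 and Mgp exceeded the floor on the null array alone, and Egflam and Fgl2 on the wild-type array alone. The floor thus fixed the direction of these genes, and the shares of 20% and 13.3% rest in part on them. The 16 measured receptor and processing genes had 2 (12.5%) on each side of that threshold (median 0.06). The laminin receptor dystroglycan (Dag1) was 2.06-fold higher (2353 and 4838), the syndecan Sdc4 1.94-fold (904 and 1751) and the procollagen protease Tll1 2.89-fold (326 and 943). The laminin-binding integrin chain Itga6 was 2.35-fold lower (1839 and 784), and the chain Itgb3, named after its value was seen, was at least 4.37-fold lower (437 and 48.9). Both lists held genes on either side of 0, as the matrix genes did. The log2 ratio was above 0 in 12 of the 15 glycoproteins (80%) and 9 of the 16 receptor and processing genes (56.2%). The shares were 66.7% for the matrix genes and 50.6% for all measured genes. Of the 12 glycoproteins above 0, Lamc3, Comp, Matn3, Fbln7, Mmrn1 and Mgp exceeded the floor on the null array alone, which fixed their direction. Whether the lean towards higher signal was particular to the 56 genes was thus not tested.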

How the data were processed

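Total RNA of 1 wild-type and 1 Bmi1 null culture was labelled as biotinylated cRNA and hybridised to Affymetrix mouse expression arrays. The deposited values are linear intensities, 1 per probe set for 45101 probe sets, which the authors derived with MAS5. The mean after trimming 2% at each end was 500 on both arrays, as after global scaling, which hides any shift common to most genes. The parameters of MAS5 are not given in the sources used here. A single symbol in GEO's platform annotation was carried by 34958 probe sets, several by 932 and none by 9211. Looking up Entrez identifiers in the RefSeq gene table changed 0 symbols.

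Signals below 0.2 times the trimmed mean (100) were raised to that floor before log2, and genes that did not exceed it on either array got no ratio. Bounds enter medians at their bound. With 1 array per group no test was made, and the number of arrays limits all precision. Other matrix genes and receptors named were up to 4 per list with the largest log2 ratios in either direction among those whose brighter signal reached the trimmed mean, plus those said to be named after their values were seen. Cell type markers were named outside this rule, as were Y-linked genes, to check the labels. The genes, classes and lists were chosen with earlier results of these data known. Protein features were not analysed here. Scripts ran in Python (version 3.11.15, pandas 2.3.3, numpy 2.4.6) and were tested on simulated data. Other floors, a pseudocount, other scalings and other choices of probe set were tried.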

Additional observations from a re-analysis of the deposited data

How the results depend on the processing

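Under 8 alternative settings the count of matrix genes at least 2-fold higher ranged from 10 to 14 (11 as reported) and that of genes at least 2-fold lower from 3 to 5 (4 as reported), and their median log2 ratio ranged from 0.32 to 0.46 (0.42 as reported). The share of all genes at least 2-fold higher was 12.9% without a floor and 3.07% with a pseudocount, settings in which each matched gene has a ratio. In these settings 14 and 10 of 53 matrix genes were higher by that much. The share of all genes at least 2-fold lower was 8.68% and 2.58%, beside 5 and 3 of the 53. The median of the crosslinking genes, 0.16, became 0.51 with a floor of 0.1 in place of 0.2 times the trimmed mean and 0.53 without a floor, where Loxl4 also has a ratio. That of the matricellular genes, 0.58, became 0.99 with the floor at 0.4 times. The median of the adhesive and interstitial genes, 0.09, turned to -0.06 with the mean over measured probe sets and to -0.15 without probe sets of the suffixes _s_at, _x_at and _a_at. Without those probe sets the elastic fibre median, 0.77, became 0.59, beside 0.58 for the matricellular genes. Of 353 values of single genes under these settings, 31 moved by more than 0.30, the SD between probe sets of 1 gene, and 0 of the genes at least 2-fold different changed sign. Smoc2 fell short of 2-fold with the floor at 0.4 times (-0.34), with a pseudocount (-0.86) and with the mean over probe sets (-0.84), and Fbn2 with a pseudocount (0.81). Tnxb was -1.90 with the floor at 0.1 times. No paired analysis was possible because there was 1 array per group, and for the same reason no replicate could be left out. Signals near the floor limit the folds of Nid2, Lama4, Smoc1, Smoc2, Spon2 and Ltbp1.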
